A study of Caenorhabditis elegans with 9 samples.

Results

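The heterochronic timing genes lin-14, lin-28, lin-41, hbl-1, lin-29, lin-42, lin-46 and blmp-1 were described here by the open chromatin assigned to them in the embryo and in L1 arrest. Their DHS were taken as the rows that name any of these 8 genes in the submitters' gene tables, whatever the values. Of 26872 embryo assignments of a noncoding DNase I hypersensitive site (DHS) to a gene, 52 belonged to them, and of 16200 L1 assignments, 37. Of the 8 genes, 6 had at least 1 DHS in either stage. The assay, DNase-seq, cleaves accessible DNA in isolated nuclei with DNase I and sequences the short fragments. Nuclei came from wild-type Caenorhabditis elegans of strain N2, with no transgene or mutant allele named in the labels. One group was embryos of around 40 cells (4 replicates, A to D), and the other was larvae in L1 arrest, which newly hatched larvae enter without food (5 replicates, V to Z). Both are whole animals of many cell types, so a site open in fewer cells and a site less open in each cell cannot be told apart. No fed L1 larvae were sampled, so arrest, hatching and age cannot be told apart either.

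Heterochronic genes set the order in which larval cells adopt stage-specific fates. Early factors are switched off one after another by small RNAs, first by the microRNA lin-4 and later by the let-7 family. Mutants repeat or skip whole larval stages, and the pathway ends in the switch of the epidermis to its adult form. LIN-14, LIN-28 and HBL-1 act early, LIN-46 and LIN-41 in the middle, and LIN-29 last. LIN-42 and BLMP-1 act in the molting rhythm that accompanies these steps.

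The submitters merged the replicates of each stage before they made the lists, so there is 1 value per stage. No difference below can be set against a spread between replicates, and none carries a test. The embryo list held 26644 noncoding DHS and the L1 list 16084, and the reads behind each site are not given. Shares are printed with exact binomial 95% intervals, which cover counting error only, beside the same share over all sites or genes. Scores were used only as ranks within a stage, with rank 1 for the highest score. A percentile is the share of that stage's noncoding DHS with the same or a lower score.

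lin-14 had the most DHS of the 8 genes, and lin-28 and lin-46 had none in either stage. lin-14 was assigned 20 embryo and 12 L1 DHS, a number that 0.110% of 19983 coding genes reached in the embryo and 0.140% in L1. lin-29 had 10 and 8, and lin-42 also had 10 and 8, numbers reached by 1.12% of genes in the embryo and 0.641% in L1. hbl-1 had 7 and 6 (2.82% and 1.60% of genes). blmp-1 had 4 and 3 (9.88% and 8.55%). lin-41 had 1 in the embryo and 0 in L1. Each of the 6 genes with an embryo DHS had more in the embryo than in L1, as did 6581 of the 10475 coding genes with an embryo DHS. With genes lacking DHS counted too, this was 6 of 8 (75.0%, 34.9 to 96.8%), against 32.9% of all coding genes. None of the 8 had more in L1, against 3.86% of all coding genes. Of the assignments of both stages together, 41.6% of the members' (31.2 to 52.5%) were from L1, against 37.6% over all genes. The embryo list is the longer one. Reduced by score to the length of the L1 list, it left the members 36 embryo DHS, beside 37 in L1. Of the 8 genes, 6 had an embryo DHS (52.4% of all coding genes) and 5 an L1 DHS (38.9%).

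**Figure D1:**
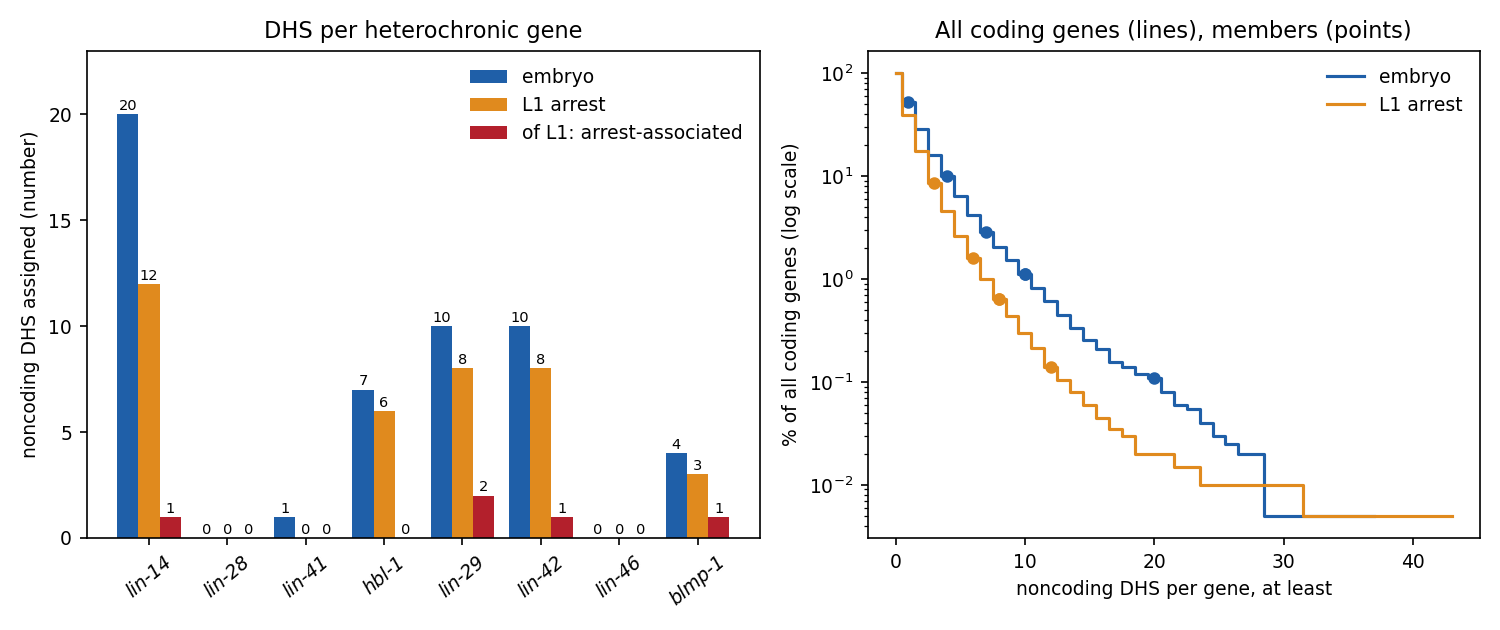
Left, number of noncoding DHS assigned to each heterochronic gene in the embryo list, the L1 arrest list and the arrest-associated part of the L1 list. Right, percentage of all 19983 coding genes (log scale) with at least the number of DHS on the x axis, with the heterochronic genes that have a DHS as points; lin-14 lies at 20 embryo and 12 L1 DHS, far along each curve.

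lin-14, which encodes a nuclear DNA-binding protein that promotes first-stage larval fates, had a row of DHS over its whole length and beyond. They spanned 24110 bp of chromosome X, from chrX:11461681 to chrX:11485790 in ce10. The deposited distances place the gene model at chrX:11468502-11484266. Of the 20 embryo DHS, 12 lay in introns and 8 outside the model, and of the 12 L1 DHS, 7 and 5. Neighbouring embryo DHS lay 1160 bp apart from centre to centre at the median, from 280 to 2220 bp. Over the 227 genes with at least 10 embryo DHS, the median of this spacing was 1140.5 bp, close to the value for lin-14. In L1 the median spacing of the 12 lin-14 DHS was 2180 bp, wider than the median of 1387.8 bp over the 60 genes with at least 10 L1 DHS.

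None of the lin-14 DHS was among the top 1% of its list by score. The highest was 991 bp outside the model at chrX:11467361-11467510, with rank 1943 in the embryo and, 40 bases along, rank 2238 in L1. The embryo DHS ranged from the 14.1 to the 92.7 percentile, and the L1 DHS from 14.3 to 86.1. On the other side of the gene, chrX:11484921-11485070 lay 654 bp from the model and had the same bounds in both stages, with ranks 4864 and 3338. A footprint is a short stretch inside a DHS that is cut less, as under a bound protein. This last DHS held the lowest footprint scores of the locus, -8.53 in the embryo and -8.34 in L1. Its 2 merged embryo footprints covered positions 48 to 95 and 108 to 138 of the DHS, and L1 footprints covered 54 to 97, 105 to 136 and 140 to 149.

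The deposited motif tables list lin-14 under 1 motif found in embryo intronic DHS, a GC-rich word shared by 56 listed genes. The motif has 2 spellings, shown because they are the sequences the files tie to lin-14, with the base that varies in capitals.
lin-14 motif, spelling 1: ccCcgcccac
lin-14 motif, spelling 2: ccAcgcccac
Spelling 1 was counted 23 times in the searched set and 1 time in the control set, and spelling 2 11 times and 1 time. The tables do not say which intronic DHS of lin-14 holds the word or which protein binds it.

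hbl-1, the Hunchback-like zinc finger gene that promotes second-stage fates, had fewer DHS than lin-14, several of them highly ranked. Of its 7 embryo DHS, 6 lay on the lower-coordinate side of the model, between 1208 and 5848 bp from it, and 1 lay in an intron. The DHS at chrX:5818301-5818450, 3828 bp away, had rank 257 in the embryo and rank 292 in L1. A second, chrX:5820921-5821070 in the embryo and chrX:5820941-5821090 in L1, had ranks 511 and 818. An L1 noncoding DHS overlapped 6 of the 7. The exception was chrX:5816641-5816790, at the 48.4 percentile and 190 bp from the nearest L1 DHS. The median percentile of hbl-1 DHS was 87.3 in the embryo and 77.6 in L1.

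lin-28, an RNA-binding protein gene that blocks let-7 maturation, and lin-46, a gephyrin-like gene that acts against HBL-1, had no row in the embryo, L1 or arrest-associated gene tables. The coding genes beside lin-28 on chromosome I are F02E9.1, with 0 DHS in each stage, and F02E9.7, with 2 in the embryo and 0 in L1. Both neighbours of lin-46 on chromosome V, R186.8 and pnn-1, also had 0 in each stage. DHS that the submitters placed in exons, those with 75% of their length there, carry no gene in the tables, so these zeros hold for noncoding DHS. lin-41, a TRIM-NHL RNA-binding protein gene and a target of let-7, had 1 intronic DHS at chrI:9338961-9339110. It had rank 20673 in the embryo, and the nearest L1 DHS was 1190 bp away.

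lin-29, the EGR-type zinc finger gene that drives the larval-to-adult switch, had DHS spread over 20890 bp of chromosome II. Of its 10 embryo DHS, 5 lay in introns and 5 between 1358 and 5578 bp beyond the model's edge at position 11935343. The highest ranked was the intronic chrII:11928921-11929070, with rank 2655 in the embryo, and its L1 counterpart 20 bases away had rank 2731. All 6 of its shared DHS ranked lower in L1, with changes from -7.01 to -64.9 percentile points. The widest drop was at chrII:11936701-11936850, from the 70.2 to the 5.35 percentile, and only 0.814% of all shared pairs had as large a drop or larger. This DHS held 3 merged footprints in the embryo and none in L1. The next L1 DHS beyond it, chrII:11937181-11937330, had no embryo overlap.

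lin-42, the worm relative of the circadian period gene and a regulator of the molting rhythm, held the best-ranked DHS of all 8 genes. The intronic chrII:1237981-1238130 had rank 10 of 26644 in the embryo and rank 18 of 16084 in L1. The intronic chrII:1236601-1236750 had ranks 120 and 190, and chrII:1247041-1247190, 3006 bp outside the model at chrII:1233246-1244034, had ranks 72 and 173. These 3 DHS had the same bounds in both stages. With 3 DHS in the top 1% of the embryo list, lin-42 was 1 of 10 genes with as many among 11055 in the table, a count chosen after its values were seen. In L1 it had 1 in the top 1%, and the other pair lay just outside it. Of all the members' DHS, 4 of 52 embryo (7.69%, 2.14 to 18.5%) and 1 of 37 L1 DHS (2.70%, 0.0684 to 14.2%) were in the top 1%, where 1.00% lies by construction.

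One lin-42 DHS ranked far higher in L1 than in the embryo. At chrII:1232861-1233010, 235 bp from the model, the embryo DHS had rank 25140, the 5.63 percentile, and the overlapping L1 DHS had rank 5002, the 68.9 percentile. The gain of 63.3 percentile points lies at the 99.8 percentile of all 14256 shared pairs. It was the only member pair with a gain of at least 30 points, which 2.83% of all pairs had. The intronic pairs at chrII:1237101-1237250 and chrII:1242521-1242670 changed by -36.5 and -42.7 points, the opposite direction. Of the 10 embryo entries, chrII:1243921-1243950 and chrII:1244036-1244070 have the same score and span a single 150 bp window, as parts of 1 DHS would. The tables list them as 2 entries and they are counted so here, and counted once the members' embryo total is 51. The second is labelled intronic although it begins 2 bp beyond the upper edge of the model. Another 5 embryo and 3 L1 DHS within the lin-42 span have no noncoding entry, being among those classed as exonic. The highest of these, chrII:1234221-1234370, had rank 2121 of all 41825 embryo DHS and rank 2669 of all 23670 L1 DHS.

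lin-42 is listed under 2 motifs of embryo noncoding DHS, shown for the same reason as those of lin-14.
lin-42 first motif, spelling 1: cggcCgcggc
lin-42 first motif, spelling 2: cggcAgcggc
lin-42 second motif, spelling 1: Caacaacaacaa
lin-42 second motif, spelling 2: Aaacaacaacaa
The first motif was counted 37 times in the searched set and 2 times in the control set, with 190 genes listed. The second was counted 39 times and 1 time, with 42 genes listed. The first word is made of G and C but for the varying base, and the second repeats a triplet of A and C. Which DHS of lin-42 holds them is again not stated. blmp-1 is listed under 1 motif, and none of the other members is listed under any of the 57 motif entries.

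blmp-1, a zinc finger factor gene related to mammalian Blimp1, had its DHS within 3030 bp on the lower-coordinate side of the model on chromosome I. Its DHS chrI:10409061-10409210, 150 bp from the model, had the same bounds in both stages, with rank 1570 in the embryo and 1841 in L1. A pair of DHS lay side by side without touching: chrI:10407421-10407570 was open in the embryo alone, with rank 2936, and chrI:10407601-10407750 in L1 alone, with rank 1889. The gap between them was 30 bp. The embryo DHS was the only one without an L1 overlap that ranked above the 60 percentile among the 20 such DHS of the members.

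**Figure D2:**
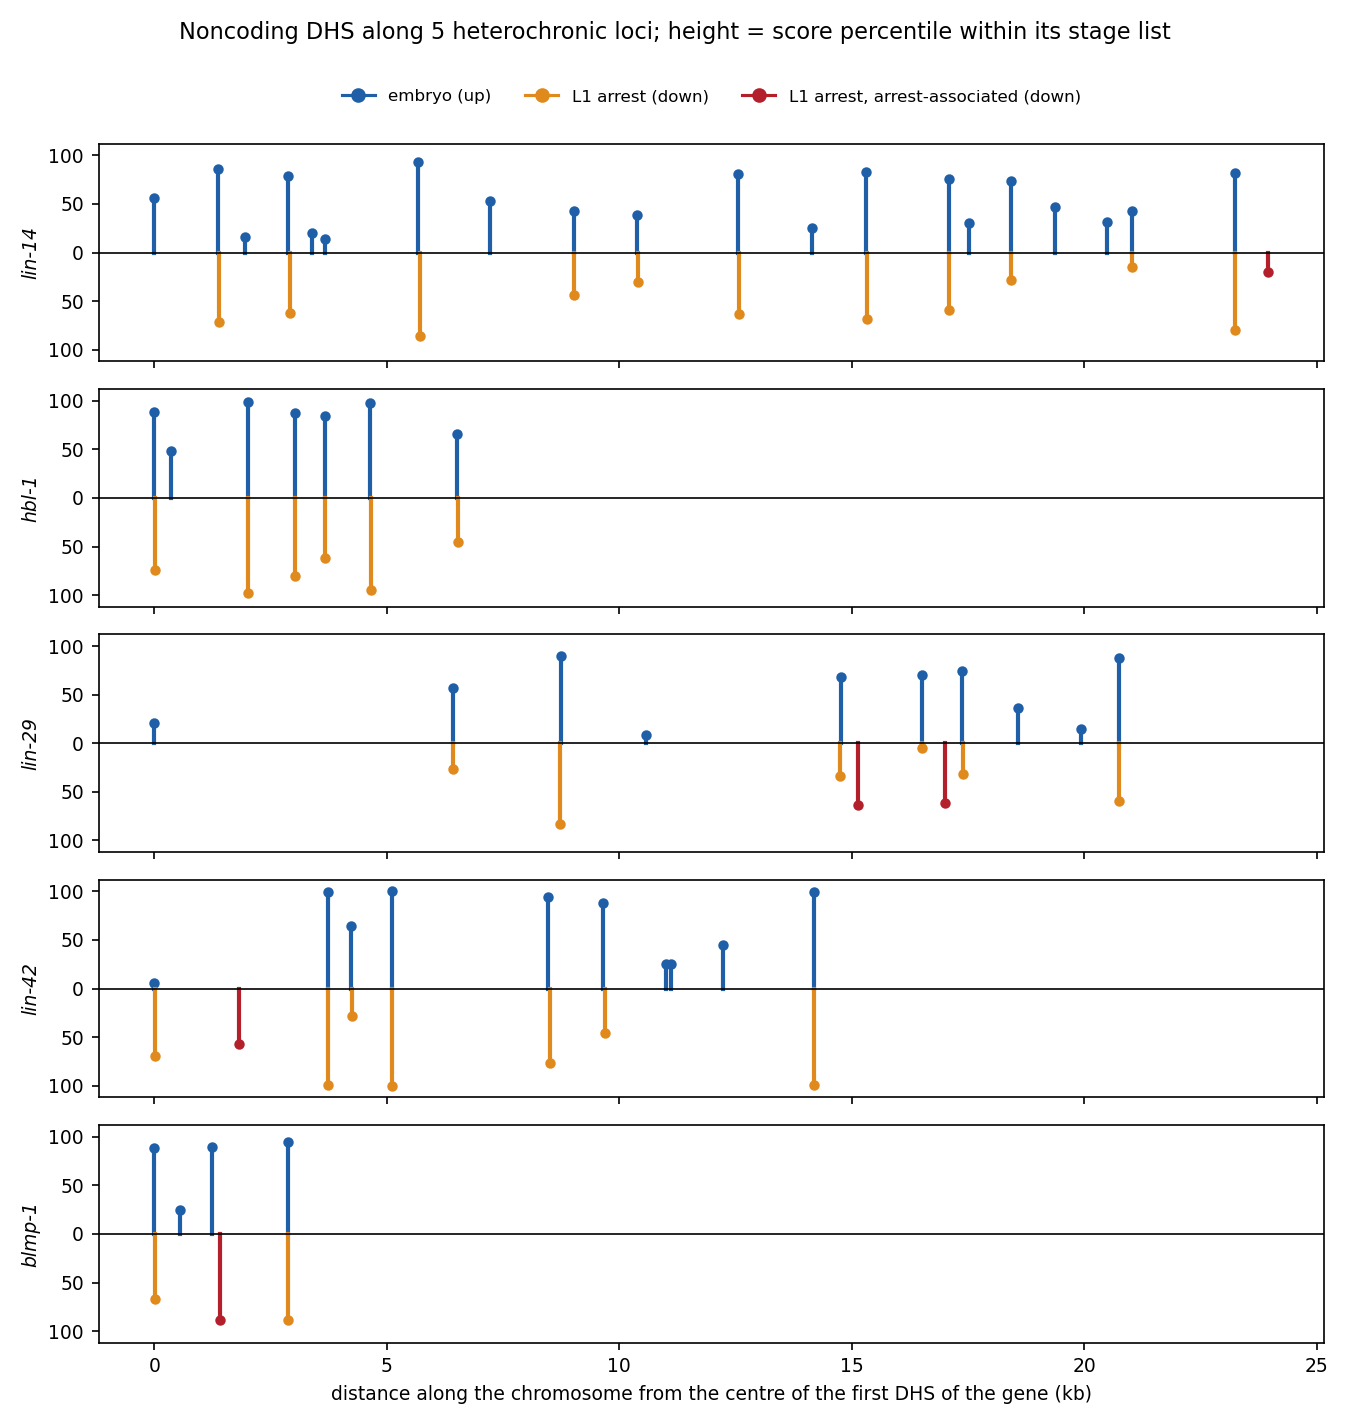
Noncoding DHS along the 5 heterochronic genes with DHS in both stages, placed by distance in kb from the centre of the first DHS of each gene, embryo upward and L1 arrest downward, with height as the score percentile within the stage. Shared sites appear as mirrored lines, and the 5 arrest-associated sites are in red; at lin-42 the first site is short in the embryo and tall in L1.

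Across the 8 genes, 32 of 52 embryo DHS overlapped an L1 noncoding DHS (61.5%, 47.0 to 74.7%), against 53.5% of all embryo noncoding DHS, which lies inside the interval. By gene these were 11 of 20 at lin-14, 6 of 7 at hbl-1, 6 of 10 at lin-29, 7 of 10 at lin-42, 2 of 4 at blmp-1 and 0 of 1 at lin-41. In the embryo, overlap went with rank. The shared embryo DHS had a median percentile of 83.8 (all genes 70.9), and the 20 listed in the embryo alone had 25.7 (all genes 27.3). In L1, 32 of 37 DHS overlapped an embryo noncoding DHS (86.5%, 71.2 to 95.5%), against 88.6% of all. There the shared DHS had a median percentile of 65 (all genes 52.3) and the 5 not shared had 61.6 (all genes 33.7), so the members' medians were close in L1. Of the 32 shared pairs, 16 began at the same base in both stages (50.0%, against 44.9% of all pairs).

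The percentile of shared DHS was lower in L1 at 31 of 32 pairs (96.9%, 83.8 to 99.9%), against 82.4% of all pairs. The rank number can go the other way, because the L1 list is shorter. At the lin-14 DHS chrX:11484921-11485070 the rank was 4864 in the embryo and 3338 in L1. Its percentiles were 81.7 and 79.3. The median change was -15.4 percentile points for the members and -14.1 for all pairs. A percentile is relative to its own list, and the embryo list is longer, with many low-ranked DHS that L1 lacks, so such a change is not by itself a change in accessibility. Drops of at least 30 points were found at 7 pairs (21.9%, all pairs 24.7%), of which lin-29 had 4, lin-42 2 and lin-14 1. Both shares of pairs with a change of that size, and the median, lay close to those of all pairs.

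**Figure D3:**
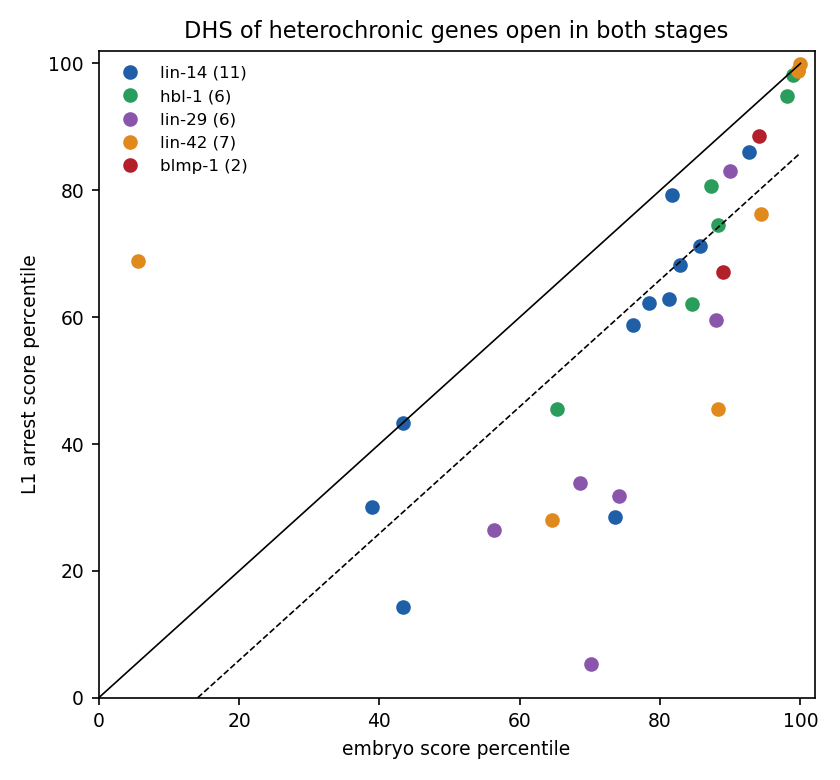
Score percentile in the embryo (x axis) against L1 arrest (y axis) for the 32 DHS pairs of heterochronic genes open in both stages, with the number of pairs per gene in the key. The solid line marks equal percentiles and the dashed line the median change of all pairs, -14.1 points; 1 lin-42 pair lies far above the solid line and a lin-29 pair far below the dashed one.

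The arrest-associated list, the submitters' L1 noncoding DHS without an embryo noncoding overlap, held 5 of the 37 L1 DHS (13.5%, 4.54 to 28.8%), against 11.4% of all L1 noncoding DHS. They belonged to 4 of the 8 genes (50.0%, 15.7 to 84.3%), where 7.19% of all coding genes have any. Among genes with an L1 DHS these were 4 of 5 members and 1436 of 7764 coding genes. A gene with more L1 DHS has more that can be in this list, and genes were not matched for that number. lin-29 had 2, and lin-14, lin-42 and blmp-1 had 1 each. One lin-29 site, chrII:11935344-11935450, began at the edge of the gene model, 253 bp from the nearest embryo DHS, with rank 5923. The second, chrII:11937181-11937330, lay 230 bp from the nearest embryo DHS and had rank 6175. The lin-14 site chrX:11485641-11485790, 1374 bp from the model, had the low rank 12885 and a gap of 570 bp. The remaining sites were closer to embryo DHS. The blmp-1 site was the one 30 bp from an embryo DHS, and the lin-42 site chrII:1234726-1234770 is a 45 bp noncoding part with rank 6858 that overlapped the embryo DHS chrII:1234601-1234750, which the submitters classed as exonic and left out of the embryo noncoding list. Asking for no embryo DHS of any kind within 150 bp left 3 of the 5 sites, and 7.64% of all L1 noncoding DHS.

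Most of the members' DHS held a footprint, in 48 of 52 cases in the embryo (92.3%, 81.5 to 97.9%, all DHS 82.0%) and in 34 of 37 in L1 (91.9%, 78.1 to 98.3%, all DHS 84.0%). Fewer of the members' DHS were narrower than 150 bp, 3 of 52 (5.77%, all 27.1%) and 3 of 37 (8.11%, all 20.6%). Among DHS of at least 150 bp the embryo shares were 95.9% for the members and 93.3% for all, and the L1 shares 91.2% and 92.9%. The excess over all DHS was thus within 3 percentage points, or absent, at full width. Where there was a footprint, overlapping ones merged, a DHS held 3.17 on average in the embryo (SD 1.56 over 48 DHS, all DHS 2.62) and 2.88 in L1 (SD 1.09 over 34 DHS, all DHS 2.47). These means include narrow DHS and were not limited to full width.

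The 3 top lin-42 DHS were covered by footprints over most of their length. At chrII:1237981-1238130, 7 embryo footprints covered 115 of 150 bp and 4 L1 footprints 131 bp. The longest L1 run, positions 23 to 121, held the embryo run from 23 to 76 and 2 further embryo footprints entirely, so the runs began at the same base and ended at different ones. The L1 run merged 20 footprint entries and the embryo run 10, each entry at most 30 bp wide. The bounds of a run thus depend on which entries overlap. At chrII:1236601-1236750 the main run was 35 to 96 in the embryo and 32 to 91 in L1. At chrII:1247041-1247190 the lowest embryo footprint score of any member, -11.7, lay within the merged footprint at positions 73 to 118. L1 footprints at 50 to 97 and 98 to 115 overlapped that merged footprint. In the hbl-1 DHS chrX:5820921-5821070, a merged embryo footprint of 58 bp, in which the lowest score was -9.79, overlapped a merged L1 footprint of 55 bp. In the other hbl-1 DHS, chrX:5818301-5818450, the longest embryo footprint covered 16 to 65 and the longest L1 footprint 109 to 143, without overlap. Shorter footprints of the other stage lay over both runs, and every footprint of this DHS overlapped one of the other stage.

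Within the stretches shared by both stages, 81 of 114 embryo footprints of the members overlapped an L1 footprint (71.1%, 61.8 to 79.2%, all genes 66.2%). Of 74 L1 footprints, 68 overlapped an embryo footprint (91.9%, 83.2 to 97.0%, all genes 81.5%). With at least 50% of both footprints required, the shares were 36.0% (27.2 to 45.5%, all genes 37.7%) and 54.1% (42.1 to 65.7%, all genes 50.0%). The interval of the L1 share by any overlap lay above the share of all genes, and that of the stricter share held it. These intervals treat footprints as independent, although several lie in the same DHS, so no difference from all genes can be drawn from them. Where there was a footprint, footprints covered more bp per DHS in the members than in all DHS. The medians were 68 bp against 51 bp in the embryo and 69.5 bp against 54 bp in L1. Fewer of the members' DHS are narrow, and these medians were not limited to full width. The part that covered bp or width plays in the overlap was not tested.

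**Figure D4:**
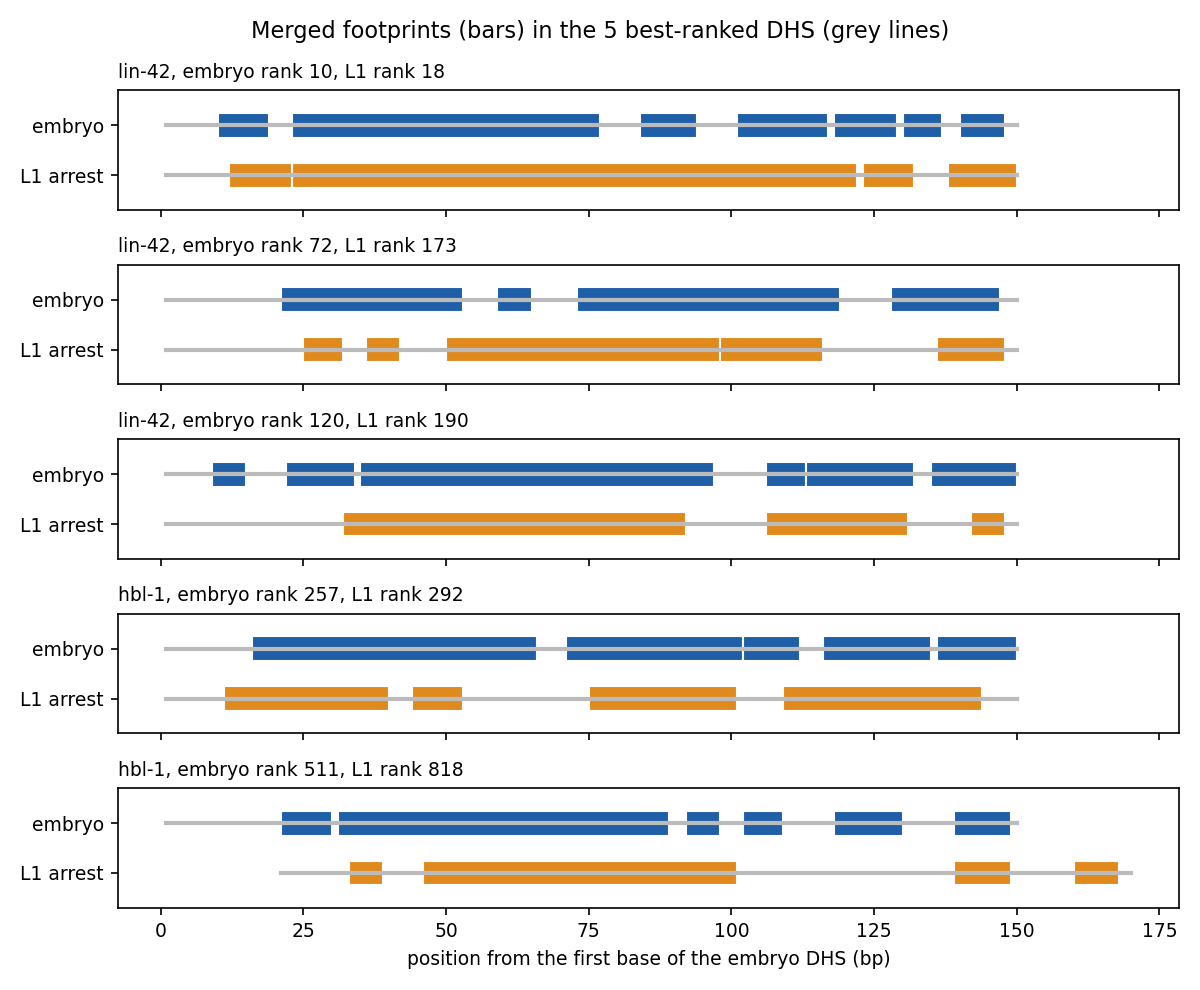
Merged footprints (bars) in the 5 best-ranked heterochronic DHS open in both stages (grey lines), 3 of lin-42 and 2 of hbl-1, by position in bp from the first base of the embryo DHS, with the embryo above and L1 arrest below. The longest embryo bar overlaps the longest L1 bar in 4 of the DHS and not in the hbl-1 DHS with embryo rank 257, where every bar still overlaps a bar of the other stage.

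Most of the members' DHS outside introns lay at least 1000 bp from their genes. Of 26 such embryo DHS, 22 were at least 1000 bp from the model (84.6%, 65.1 to 95.6%, all intergenic DHS 43.8%), and of 20 in L1, 15 (75.0%, 50.9 to 91.3%, all 45.7%). These intervals treat DHS as independent, although several belong to the same gene. Members with any DHS had a median of 8.5 in the embryo and 8 in L1, against 2 and 1 for coding genes with any. The part that this number plays in the distances was not tested. Less than 300 bp from the model lay 1 lin-42 and 1 blmp-1 DHS in the embryo and 1 each of lin-42, blmp-1 and lin-29 in L1. The intron shares were 26 of 52 in the embryo (50.0%, all 43.8%) and 17 of 37 in L1 (45.9%, all 40.4%), each with an interval that holds the value of all DHS. No DHS of the members was assigned to a second gene, as were 0.829% of all embryo and 0.709% of all L1 DHS.

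Other genes of the pathway, 31 in a list by role, were mostly open as well. Of the 24 coding ones, 21 had an embryo DHS (all coding genes 52.4%) and 20 an L1 DHS (38.9%), 15 had more in the embryo (32.9%) and 2 more in L1 (3.86%). Among nuclear receptors, hormone and molting regulators 6 of 7 had DHS in each stage. daf-12, a steroid hormone receptor gene, had 15 embryo and 9 L1 DHS. Its corepressor gene din-1 had 14 and 12, and nhr-25, a nuclear receptor gene of the epidermis, had 10 and 4. Among the microRNAs and their effectors the Argonaute genes alg-1 and alg-2 had 6 and 5, and 5 and 3. mir-241, a let-7 family microRNA, had 4 in each stage, while 3 of the 6 microRNAs listed had no row in the tables. The submitters say they left noncoding RNAs out of these tables. Yet mir-241 has rows there, so why the 3 are absent is not known. Of the LIN-42 partners kin-20, a casein kinase 1 gene, had 6 and 5, and tim-1 had 1 and 2. Among cofactors and targets of LIN-29 and LIN-41, mab-3 had 8 and 5, the LIN-29 cofactor gene mab-10 had 5 in each stage and dmd-3 had 4 in each. apl-1, the amyloid precursor relative, had 8 and 3, sea-2 had 5 and 5, and lin-66 had 1 and 2. tim-1 and lin-66 were the 2 genes with more L1 than embryo DHS, and each of them, daf-12 and dmd-3 had 1 arrest-associated DHS, 4 of the 24 coding genes (all coding genes 7.19%).

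Genes most like the 3 richest members were found by the distance between 3 counts, of embryo, L1 and arrest-associated DHS, over the 2 stages. For lin-14 they were gei-3 with 19, 12 and 1, mbl-1 with 20, 12 and 0 and mpz-1 with 20, 11 and 0. tbc-17, with 10, 8 and 2, had the counts of lin-29, and elf-1 and miz-1, with 10, 8 and 1, those of lin-42, followed by bam-2 with 10, 7 and 1. With so few values many genes are close, and 17 genes lay within a distance of 1 from lin-42.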

How the data were processed

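Peaks, footprints and gene assignments are the authors' own. Per the series design text, DHS were called with HOTSPOT version 3 and filtered at an IDR level of 0.1, repeats and blacklisted regions were removed, peaks were merged across the replicates of a stage, and genes were assigned from WormBase WS241 models. Footprints were called with DNase2TF at an FDR of 0.05 in each replicate and in the merged data, per the same text. The submitters' processing notes list Bowtie 1.0.0 and the build ce10. Per the labels, 3 replicates of each stage have a read length of 50 bp and the others (1 embryo, 2 L1) 76 bp, which the merged lists cannot separate.

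The DHS and footprint score was used as deposited by the authors; no label or header says how it was scaled, so scores only ranked entries within a list. The gene tables were joined to the DHS lists by coordinates. Coordinates are in ce10, count from 1, and overlap means at least 1 bp. Overlapping footprints were merged (125825 embryo and 79107 L1 entries to 57306 and 33330). Genes were matched to the WBcel235 coding gene table for names and neighbours (94.7% of 11435 matched). Python 3.11.15, pandas 2.3.3 and SciPy 1.17.1 were used, and overlap and rank functions were tested on simulated data. The members and lists were chosen with earlier results of these data known. All 8 members are named, with up to 3 pathway genes per role by embryo DHS, any with more L1 than embryo DHS, and the 3 nearest genes of members with at least 10 embryo DHS. No genome of the files' build was used here, so no DHS sequence is shown. Motif words of the chromosome I member are not shown.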

Additional observations from a re-analysis of the deposited data

How the results depend on the processing

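The 52 embryo DHS of the members became 31 with only sites above the median score and 32 without lin-14. With the embryo list reduced by score to the L1 number they were 36, beside 37 in L1. At that list length the members had no more DHS in the embryo than in L1. With parts of a single DHS counted once they were 51. Both 36 and 51 are within 1.5 times of 52. The share of embryo DHS overlapped in L1, 61.5%, was 83.3% with the reduced list (all DHS 76.0%) and 90.3% above the median score (all DHS 82.8%), since low-ranked embryo sites are the ones left out. Both values remained above those of all DHS by 8 points or less. The 5 arrest-associated DHS became 3 when no embryo DHS of any kind was allowed within 150 bp. With only the 50% of footprints that have the lower scores, the share of DHS with a footprint was 76.9% in the embryo (all 59.2%) and 75.7% in L1 (all 61.5%). These shares include narrow DHS, of which the members have fewer, and were not limited to full width. The other 23 values from an alternative moved less than the limit used, among them the L1 overlap, the median percentiles and both DHS overlap shares with at least 50% of both DHS required. Footprint overlap between the stages did depend on that requirement, at 71.1% and 36.0% in the embryo and 91.9% and 54.1% in L1. The settings without lin-14 and with parts counted once were chosen after the data were seen. No replicate could be left out because each list merges its replicates. No paired analysis was possible because the replicate letters are not shared between the stages and each stage is a single merged list. The reads behind a site are not given, so the precision of a rank is unknown.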
